A study of Mus musculus with 4 samples.

Results

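The 10 Toll-like receptor genes Tlr1, Tlr2, Tlr3, Tlr4, Tlr5, Tlr6, Tlr7, Tlr8, Tlr9 and Tlr13 were chosen by symbol from the 24625 genes of the count tables, and each was found there in 1 row. RNA was sequenced from thioglycollate-elicited macrophages of the peritoneal cavity of C57BL/6 mice (C57BL/6J in the series' design text). The control group had standard chow and the high-fat group a diet with 60% of its energy from fat, both for 12 weeks, and both groups received 3% thioglycollate, an irritant that recruits macrophages, 4 days before collection. Each diet had 2 libraries, 4 in all, and the labels give neither sex nor age, nor whether a library came from 1 mouse or a pool. The p-values therefore set a diet difference only against the spread between these libraries, and that spread may be technical. The question was whether transcripts of these cells differ with diet.

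Toll-like receptors are transmembrane sensors of microbial molecules. TLR1, TLR2, TLR4, TLR5 and TLR6 act at the cell surface on lipopeptides, lipopolysaccharide and flagellin, and TLR3, TLR7, TLR8, TLR9 and TLR13 act in endosomes on nucleic acids. Macrophages use them to start the NF-kB and interferon programmes, mostly through the adaptor MyD88, and TLR2 pairs with TLR1 or TLR6 to tell apart triacylated and diacylated lipopeptides.

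The libraries held between 39347347 and 45658551 counts on genes, of which the 10 receptors held 0.138% to 0.150%. Macrophage markers were abundant. Their summed levels were 27898 and 26888 CPM (counts relative to the TMM-scaled library total) in control replicates 1 and 2. In high-fat replicates 1 and 2 they were 21108 and 25681 CPM. Without Lyz2, the lysozyme gene that makes up most of the sum, they were 4968 and 4794 CPM against 4709 and 4686 CPM. Of the 10 tested, 8 had log2 fold changes below 0 and 2 above. Mertk was lower and past the edgeR threshold (log2 fold change -0.69, adjusted p = 0.0449), where 0.290% of all kept genes were. High-fat replicate 2 stood apart in lymphocyte markers. The 10 B cell markers summed to 210 CPM there and to 112 to 127 CPM in the other libraries. Cd22, the most abundant of them, was lower there, at 40.9 CPM, than elsewhere, at 48.2 to 59.8 CPM. Without Cd22 the sums were 67.2 and 62.4 CPM on chow and 64.1 and 169 CPM on high-fat diet. The 9 T and NK cell markers summed to 22.5 CPM in high-fat replicate 2 and to 3.38 to 5.46 CPM elsewhere. Control replicate 1 stood apart in the 10 large peritoneal macrophage markers, which summed to 221 CPM there and to 75.4 to 117 CPM elsewhere. Of 9 tested, 7 had log2 fold changes below 0 and 2 above. Alox15 was lower and past the edgeR threshold (log2 fold change -2.38, adjusted p = 0.0364), where 0.290% of all kept genes were. Neutrophil markers summed to 112 and 116 CPM on chow and to 80.9 and 67.3 CPM on high-fat diet, with the granule protease gene Elane at 0 counts in all libraries. All 9 tested had log2 fold changes below 0. In 5 of the 9 both high-fat libraries lay below both control libraries, against 24.9% of all kept genes. Mmp9 (-1.48) and Csf3r (-0.69) were lower and past the edgeR threshold, where 0.290% of all kept genes were. Mesothelial and fibroblast markers were higher in both high-fat libraries. Without Pdpn, the most abundant of them, the other 11 summed to 20.4 and 27.9 CPM on chow and to 172 and 85.2 CPM on high-fat diet. Of 10 tested, 8 were higher at an unadjusted p under 0.05, against 8.56% of all kept genes. The proteoglycan gene Lum was higher and past the edgeR threshold, where 0.322% of all kept genes were. The median log2 fold change of the 10 was 2.20. With Pdpn the sums were 462 and 453 CPM against 654 and 584 CPM. In bulk RNA fewer cells of a type and less RNA per cell cannot be told apart.

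The receptor genes lie on 7 chromosomes and none of their exons overlap those of another gene in the deposited mm9 models. Tlr1 (chromosome 5: 65315919 to 65324797, minus strand) and Tlr6 (chromosome 5: 65344334 to 65351273, minus strand) are neighbours, as are Tlr8 (chromosome X: 163680664 to 163701720, minus strand) and Tlr7 (chromosome X: 163742858 to 163768503, minus strand). Tlr13 lies elsewhere on chromosome X (103338614 to 103355832, plus strand), where exon 3, of 3799 bases, makes up 94.6% of the exon length. Tlr2 (chromosome 3: 83640194 to 83645530) and Tlr4 (chromosome 4: 66488845 to 66503830) have 3 exons each.

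Tlr1 and Tlr6 carry near-identical coding stretches, which bear on how their reads could be counted. Of 2976 windows of 50 bases in the Tlr1 transcript of GENCODE M21 (GRCm38), 454 (15.3%) also occur in Tlr6. Of 3628 windows of the Tlr6 transcript 456 (12.6%) occur in Tlr1 or in Ctsq. For every other pair of the receptor genes the longest identical coding run was 16 bases or shorter. The longest run shared by Tlr1 and Tlr6 is 229 bases, at chr5:64925537-64925765 in Tlr1 (codons 490 to 566) and chr5:64953828-64954056 in Tlr6 (codons 503 to 579), both GRCm38, minus strand. It is shown in capitals, 5′ to 3′, with 20 coding bases on each side in lower case, because reads inside it fit both genes.
Tlr1: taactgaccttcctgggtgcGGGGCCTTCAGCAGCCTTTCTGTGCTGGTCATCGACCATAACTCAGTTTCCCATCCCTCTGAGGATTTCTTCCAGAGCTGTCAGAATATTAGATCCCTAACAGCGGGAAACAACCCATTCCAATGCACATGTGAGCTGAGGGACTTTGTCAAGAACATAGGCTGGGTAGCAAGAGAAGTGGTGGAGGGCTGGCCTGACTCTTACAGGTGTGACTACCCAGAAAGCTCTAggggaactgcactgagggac
Tlr6: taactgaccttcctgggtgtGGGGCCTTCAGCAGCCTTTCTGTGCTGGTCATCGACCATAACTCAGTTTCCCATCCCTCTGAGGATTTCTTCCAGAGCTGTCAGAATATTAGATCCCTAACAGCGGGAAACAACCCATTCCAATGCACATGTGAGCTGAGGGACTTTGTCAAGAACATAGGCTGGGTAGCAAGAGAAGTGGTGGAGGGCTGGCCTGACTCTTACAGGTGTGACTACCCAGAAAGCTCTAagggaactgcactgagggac
Reads that align to more than 1 place are in a summary line of the tables and on no gene, so levels of Tlr1 and Tlr6 may be understated; how much was not tested. Of the other 8 receptors only Tlr3 had shared windows, 68 of 4358, with the gene model Gm45542.

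Promoter windows were the 250 bases before an annotated start. They were read from RefSeq sequences (GRCm38.p6), which matched 8 of the 10 receptors, all but Tlr4 and Tlr7. They were searched on both strands for GAGGAA, a core bound by the macrophage factor PU.1 and other ETS proteins, GGGNNNNNCC, a loose NF-kB motif, and GAAANNGAAA, a motif of interferon regulatory factors. The shares of all 32851 such windows with a match were 23.3%, 45.8% and 2.98%. Those of the most abundant receptor gene, of a scarce one, of the gene with the largest diet difference and of Tlr2 are shown, with matches in capitals.
Tlr13 (chrX:106143025-106143274, plus strand): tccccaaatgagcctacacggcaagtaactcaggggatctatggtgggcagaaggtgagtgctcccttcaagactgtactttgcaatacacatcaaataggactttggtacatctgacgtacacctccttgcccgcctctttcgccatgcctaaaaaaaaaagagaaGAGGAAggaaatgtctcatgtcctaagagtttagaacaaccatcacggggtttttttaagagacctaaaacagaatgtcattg
Tlr9 (chr9:106222348-106222597, plus strand): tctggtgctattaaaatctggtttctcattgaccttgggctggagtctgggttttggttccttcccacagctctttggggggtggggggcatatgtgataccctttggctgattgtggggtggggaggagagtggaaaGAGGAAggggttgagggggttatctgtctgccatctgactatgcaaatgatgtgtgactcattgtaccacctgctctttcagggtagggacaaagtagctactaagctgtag
Tlr1 (chr5:64933559-64933808, minus strand, upstream of its 2 annotated starts): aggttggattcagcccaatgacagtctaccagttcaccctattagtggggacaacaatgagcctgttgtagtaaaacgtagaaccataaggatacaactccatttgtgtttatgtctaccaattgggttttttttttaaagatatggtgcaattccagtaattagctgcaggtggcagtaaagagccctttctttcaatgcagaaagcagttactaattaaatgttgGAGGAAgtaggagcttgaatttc
Tlr2 (chr3:83841609-83841858, minus strand): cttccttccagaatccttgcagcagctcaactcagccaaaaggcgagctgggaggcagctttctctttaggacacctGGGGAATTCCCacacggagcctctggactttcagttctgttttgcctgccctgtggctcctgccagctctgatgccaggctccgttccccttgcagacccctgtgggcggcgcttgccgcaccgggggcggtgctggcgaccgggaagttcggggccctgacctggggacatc
GAGGAA stood 83 bases before the start of Tlr13, 112 bases before that of Tlr9 and 23 bases before that of Tlr1, and Tlr8 also held it. GAGGAA was found both in the most abundant receptor gene and in Tlr9, whose level was near the bottom of the family. Whether the motif bears on level was not tested. In Tlr2 a run of 11 bases holds 2 overlapping matches to GGGNNNNNCC. Tlr3, Tlr5 and the upstream start of Tlr6 held that motif as well, and the downstream start of Tlr6 held 2 matches to GAAANNGAAA.

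The receptor genes differed widely in level in these macrophages. Levels between genes were compared as RPKM, which is CPM divided by the exon length in kilobases. Tlr13, the sensor of bacterial ribosomal RNA, was the most abundant, at 161 and 179 RPKM in control replicates 1 and 2 and 175 and 162 RPKM in high-fat replicates 1 and 2. It made up 40.4% to 43.9% of the summed RPKM of the family and stood above 96.5% of the 12747 genes kept for testing. Tlr2 followed at a mean of 64.5 RPKM over the 4 libraries and Tlr4 at 56.8 RPKM; their ranges overlapped, so this order was within the spread between libraries. Tlr8 (39.0 RPKM) and Tlr7 (30.8 RPKM) overlapped in the same way, and so did Tlr7 and Tlr1 (23.0 RPKM), although Tlr7 was above Tlr1 within each of the 4 libraries. Tlr6, at 13.9 RPKM, lay below Tlr1 in every library.

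**Figure D1:**
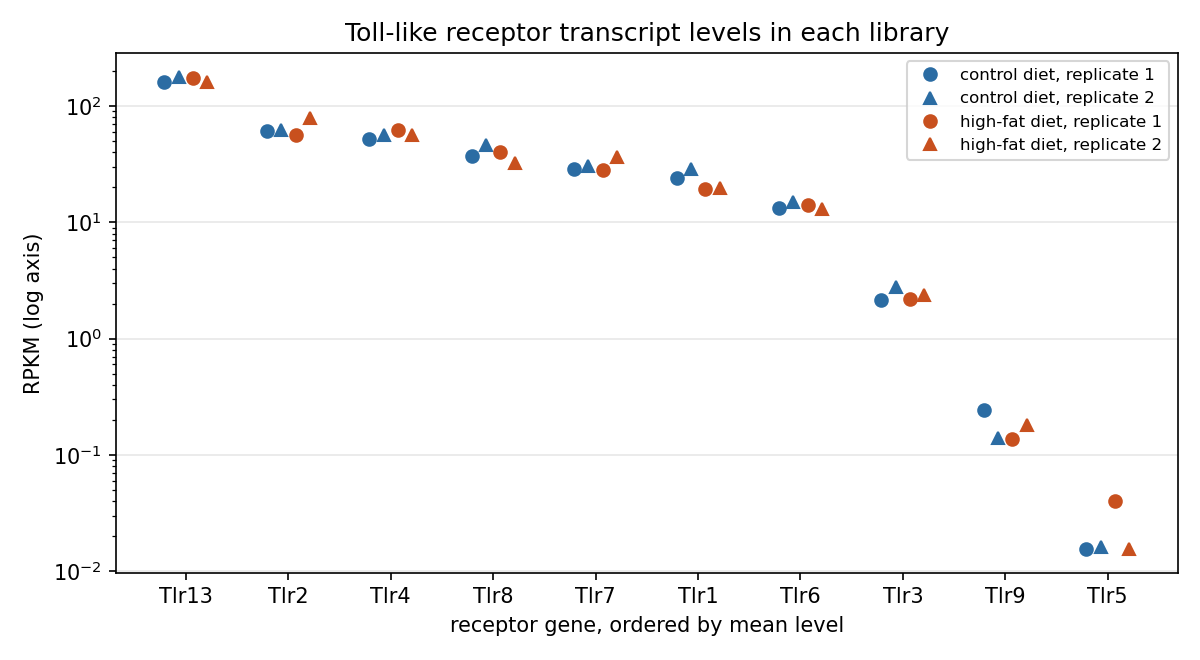
RPKM (vertical axis, logarithmic) of the 10 receptor genes in each library, ordered by mean level; each point is 1 library, coloured by diet and shaped by replicate number. Tlr13 lies between 161 and 179 RPKM in all libraries, while Tlr9 stays at or below 0.243 RPKM and Tlr5 at or below 0.0404 RPKM.

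A wide gap separated these 7 genes from the remaining 3. Tlr3, the receptor for double-stranded RNA, averaged 2.37 RPKM, with a range of 2.13 to 2.80 RPKM that met neither neighbour's. Tlr9, the receptor for unmethylated CpG DNA, had 34 and 19 counts in control replicates 1 and 2 and 22 and 25 counts in high-fat replicates 1 and 2, a mean of 0.175 RPKM. Tlr5, the flagellin receptor, had 2, 2, 6 and 2 counts in the same order. The exact Poisson interval (95%) of 6 counts runs from 2.20 to 13.1 counts and that of 2 counts from 0.242 to 7.22 counts, so the Tlr5 counts overlap between diets at this depth. These intervals cover counting error only. Tlr5 did not pass the filter on low counts and has no fold change.

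None of the 9 receptor genes that passed the filter was past an adjusted p of 0.05 between diets, where 0.612% of all 12747 kept genes were (edgeR quasi-likelihood test; 78 genes, with 0.322% higher and 0.290% lower on high-fat diet). DESeq2 called 1 of the 9, against 2.93% of the genes it gave an adjusted p, and limma-voom none, against 0.220% of all kept genes. At an unadjusted p under 0.05 there was 1 of the 9, Tlr1, which was lower, against 17.0% of all kept genes in either direction and 8.46% lower. The libraries of the diets did not overlap in 2 of the 9, Tlr4 higher and Tlr1 lower on high-fat diet, against 51.0% of all kept genes. Log2 fold changes of high-fat over control ran from -0.44 to 0.14, with a median of -0.053, and the median of all kept genes was -0.0054. The summed RPKM of the 10 receptors was 400 ± 29.4 on chow and 400 ± 2.99 on high-fat diet (SD, n = 2 libraries per diet, as for all levels given so).

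**Figure D2:**
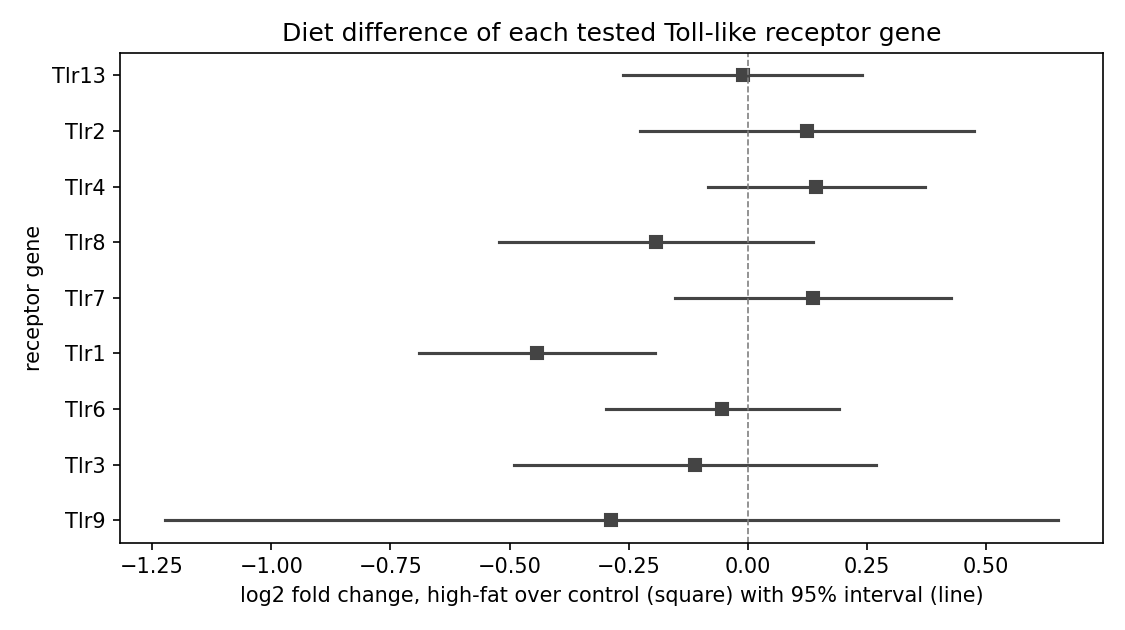
Log2 fold change of high-fat over control (horizontal axis; squares) with its 95% interval from the edgeR fit (lines) for the 9 receptor genes tested. The interval of Tlr1, from -0.69 to -0.19, lies below 0, and the other 8 intervals include 0.

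Among the surface receptors, Tlr1 differed most between the diets. TLR1 is the partner of TLR2 for triacylated lipopeptides. Tlr1 stood at 73.3 and 88.3 CPM in control replicates 1 and 2 and at 58.7 and 60.2 CPM in high-fat replicates 1 and 2. Both high-fat libraries lay below both control libraries, and the control libraries differed more from each other than the high-fat libraries did. The log2 fold change was -0.44 ± 0.11 (SE), a fold of 0.736 with a 95% interval of 0.620 to 0.874, and it missed the threshold over all genes (edgeR quasi-likelihood test, adjusted p = 0.109). Over 12 other settings the adjusted p ran from 0.0159 to 0.216: Tlr1 passed with DESeq2 (adjusted p = 0.0449), where 2.93% of the genes with an adjusted p were called, and in edgeR with no filter on low counts (adjusted p = 0.0159), where 3.00% were called. The log2 fold change was -0.58 without control replicate 1 and -0.30 without control replicate 2. Summed neutrophil markers were lower in the same libraries. So were summed monocyte and small peritoneal macrophage markers (878 and 838 CPM on chow, 560 and 631 CPM on high-fat diet). The part of these cells in the Tlr1 value was not tested.

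Tlr6, whose protein takes the place of TLR1 in the complex for diacylated lipopeptides, had 34.8 and 38.7 CPM on chow and 36.8 and 33.9 CPM on high-fat diet. The diets overlapped, and the interval of the fold, 0.814 to 1.14, bounds a change in either direction. Tlr2, the shared partner of both, had 174 and 178 CPM on chow and 160 and 225 CPM on high-fat diet. Its high-fat libraries lay on opposite sides of the control libraries, and its log2 fold change of 0.12 ± 0.15 became -0.14 without high-fat replicate 2. Tlr4, the lipopolysaccharide receptor, had 200 and 215 CPM on chow and 241 and 218 CPM on high-fat diet. Both of its high-fat libraries were above both control libraries, by little in replicate 2, with a fold of 1.10 (95% interval 0.944 to 1.29) and an adjusted p = 0.490 in edgeR. Its log2 fold change of 0.14 was 0.071 without high-fat replicate 1. That library also had the highest sum of mesothelial and fibroblast markers; their part in the Tlr4 value was not tested.

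Among the endosomal receptors no gene had separate diets. Tlr13 had 645 and 718 CPM on chow and 701 and 651 CPM on high-fat diet, a fold of 0.992 with a 95% interval of 0.834 to 1.18, the smallest difference of the 9 genes tested. Tlr8, a sensor of RNA fragments, had 116 and 146 CPM on chow and 128 and 102 CPM on high-fat diet. Tlr7, the receptor for single-stranded RNA that is also made by B cells and plasmacytoid dendritic cells, had 113 and 120 CPM on chow and 112 and 145 CPM on high-fat diet. Tlr7 was thus highest, and Tlr8 lowest, in high-fat replicate 2, the library with the most B cell and T cell transcripts; whether these cells contributed to Tlr7 was not tested. The log2 fold change of Tlr7 was 0.14 ± 0.13 and became -0.064 without that library, and that of Tlr8 was -0.19 ± 0.14, with -0.019 without control replicate 2 and -0.36 without high-fat replicate 1.

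Tlr3 had 9.22 and 12.1 CPM on chow and 9.46 and 10.3 CPM on high-fat diet, a fold of 0.926 (95% interval 0.712 to 1.20). Tlr9, which B cells and plasmacytoid dendritic cells use as well, had 0.845 and 0.489 CPM on chow and 0.474 and 0.626 CPM on high-fat diet. Its level was not highest in high-fat replicate 2. With so few counts its interval, from 0.428 to 1.57 fold, left changes of that size undetectable at this depth. The 10 markers of plasmacytoid dendritic cells summed to 59.9 and 60.2 CPM on chow and to 54.1 and 64.6 CPM on high-fat diet. Without Tcf4, the most abundant of them, the sums were 31.9 and 31.9 CPM on chow and 27.4 and 32.2 CPM on high-fat diet. Of 7 tested, 4 had log2 fold changes above 0 and 3 below, with a median of 0.069. At an unadjusted p under 0.05 there were 1 lower and 0 higher, against 8.46% and 8.56% of all kept genes. The lower gene was Siglech, with 40 and 27 counts on chow and 7 and 10 on high-fat diet (log2 fold change -2.08). The part of plasmacytoid dendritic cells in the Tlr9 counts was not tested.

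Ratios within a library do not depend on how libraries are scaled, and the ratios of neighbouring or partner genes were therefore set side by side; 5 ratios were computed, chosen with the values known, and no exact test of 2 against 2 libraries can pass the threshold. The RPKM ratio of Tlr1 to Tlr6 was 1.79 and 1.94 on chow and 1.36 and 1.51 on high-fat diet, with no overlap. The mean log2 ratio was lower by a difference of -0.38 on high-fat diet (exact permutation test, two-sided, p = 0.333, the smallest p that 2 against 2 libraries allow). The ratio of Tlr7 to Tlr8 was 0.773 and 0.653 on chow and 0.695 and 1.13 on high-fat diet, so Tlr7 exceeded Tlr8 only in high-fat replicate 2. The ratio of Tlr2 to Tlr4 was 1.17 and 1.12 on chow and 0.893 and 1.39 on high-fat diet: the high-fat libraries lay on both sides of the control libraries. The ratio of Tlr1 to its partner Tlr2 was 0.393 and 0.463 on chow and 0.343 and 0.250 on high-fat diet, again with no overlap (exact permutation p = 0.333, two-sided). The ratio of Tlr6 to Tlr2 was 0.219 and 0.238 on chow and 0.253 and 0.166 on high-fat diet, and the diets overlapped (exact permutation p = 1, two-sided).

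**Figure D3:**
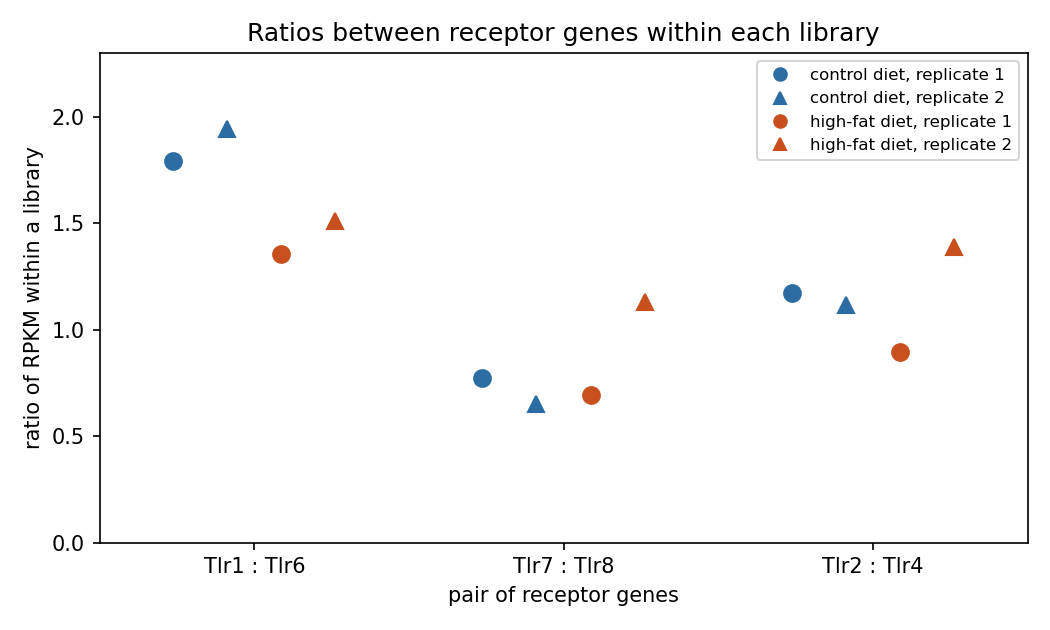
Ratio of RPKM between receptor genes within each library (vertical axis) for 3 pairs; each point is 1 library, coloured by diet and shaped by replicate number. The control points of Tlr1 to Tlr6 (1.79 and 1.94) lie above the high-fat points (1.36 and 1.51), while the diets overlap in the other pairs.

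By a rule of likeness, the kept RefSeq genes of at least 5 CPM were ranked by how closely their centred log2 CPM over the 4 libraries followed that of Tlr1. Among 8474 genes the nearest were Rpl37, a ribosomal protein gene (root mean square difference 0.0167), Fmo5, a flavin monooxygenase gene (0.0247), and Fam214a (0.0332). Rpl37 stood at 248 and 290 CPM on chow and at 195 and 202 CPM on high-fat diet, and its counts are uncertain because closely similar pseudogene copies exist. This is a description over 4 libraries, and no test was made of it.

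The other mouse receptor genes of the family were near the limit of detection. Tlr11, which recognises protozoan profilin, had 45 and 33 counts on chow and 18 and 7 counts on high-fat diet. Both high-fat libraries were below both control libraries, with a log2 fold change of -1.77 ± 0.45 that missed the threshold (edgeR, adjusted p = 0.112). It passed without high-fat replicate 1 (edgeR, adjusted p = 0.00115) and with no filter on low counts (edgeR, adjusted p = 0.0248). Markers of conventional dendritic cells were lower in part in the same libraries. Of 9 tested, 5 were lower and 0 higher at an unadjusted p under 0.05, against 8.46% and 8.56% of all kept genes. The median log2 fold change of the 9 was -1.20. Cd209a was lower and past the threshold (log2 fold change -2.34, edgeR adjusted p = 0.0161), where 0.290% of all kept genes were. Clec9a and Flt3 had -2.06 and -1.69, while Ccr7 had 0.58. The sum of the 10 listed, mostly Cd24a, was 84.2 and 106 CPM on chow and 87.6 and 107 CPM on high-fat diet. Their part in the Tlr11 value was not tested. Tlr12, its relative, had 4, 0, 1 and 2 counts and was not tested.

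Genes that serve the receptors were counted from lists of the pathway. Over 7 such lists and the other receptor genes, 96 of 102 genes passed the filter, and 1 of these, the chemokine gene Cxcl1, passed the threshold, against 0.612% of all kept genes. At an unadjusted p under 0.05 there were 12 higher and 13 lower, against 8.56% and 8.46% of all kept genes. The libraries of the diets did not overlap in 18 higher and 29 lower, against 26.1% and 24.9% of all kept genes. The median log2 fold change of the 96 was -0.074, and that of all kept genes -0.0054.

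Of the 8 surface co-receptors and ligand transfer genes none passed, with 2 higher and 2 lower at an unadjusted p under 0.05, where 8.56% and 8.46% of all kept genes were. Ly96, encoding the protein that binds lipopolysaccharide beside TLR4, had 32.3 and 37.2 CPM on chow and 44.6 and 45.7 CPM on high-fat diet, a log2 fold change of 0.38 ± 0.11 (edgeR, adjusted p = 0.148). Cd36, a scavenger receptor that assists TLR2 with TLR6 and TLR4 with TLR6, had 7598 and 8457 CPM against 11682 and 11853 CPM (edgeR, adjusted p = 0.107), and DESeq2 called it (adjusted p = 1.37e-04). Ly86, the partner of the TLR4 relative CD180, had a log2 fold change of -0.35. Cd14, which hands lipopolysaccharide to TLR4, overlapped between the diets, at 147 ± 0.970 and 130 ± 28.6 CPM.

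Among 12 genes of receptor folding, transport and endosomal processing none passed. Unc93b1, the carrier that brings nucleic acid receptors to endosomes, had 105 and 91.7 CPM on chow and 79.6 and 77.3 CPM on high-fat diet, a log2 fold change of -0.33 ± 0.10 (edgeR, adjusted p = 0.172). Slc15a3, an endosomal peptide and histidine transporter, had a log2 fold change of -0.47 ± 0.10 (edgeR, adjusted p = 0.0757; DESeq2, adjusted p = 0.00633); its exons overlap Tmem132a, so its counts are uncertain. Hsp90b1, the chaperone that folds most of the receptors, had a log2 fold change of 0.26. Unc93b1 and Slc15a3 were thus lower, and Hsp90b1 higher, in both high-fat libraries than in both control libraries, without passing the edgeR threshold. The diets did not overlap in 1 higher and 2 lower of the 12 genes, against 26.1% and 24.9% of all kept genes. Slc15a4, Cnpy3 and Cnpy4 of the same list overlapped between the diets, with log2 fold changes of 0.025, -0.21 and 0.18.

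Of 6 adaptor genes 5 were tested and none passed, at an unadjusted p under 0.05 either. Myd88, the adaptor of nearly all receptors, had 56.1 ± 3.53 CPM on chow and 58.7 ± 2.14 CPM on high-fat diet. Ticam1, the adaptor of TLR3 and of TLR4 in endosomes, had a log2 fold change of -0.36 ± 0.17, Ticam2, which joins it to TLR4, -0.17, and Pik3ap1 -0.12. Sarm1 had 2, 1, 0 and 0 counts. None of 18 kinases and ubiquitin ligases passed; Ikbke, a kinase that activates interferon regulatory factors, had the largest difference at -0.43 ± 0.12, and Chuk and Tab2 had 0.14 and -0.12.

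All 10 transcription factor genes of the pathway had log2 fold changes below 0, from -0.40 to -0.046, with a median of -0.15. Of all 12747 kept genes, 6478 were below 0. None of the 10 passed the threshold. At an unadjusted p under 0.05 there were 2 lower and 0 higher, against 8.46% and 8.56% of all kept genes. In 5 of the 10 both high-fat libraries lay below both control libraries, against 24.9% of all kept genes. Relb, Irf1 and Nfkb2 had -0.40, -0.28 and -0.28; exons of Nfkb2 overlap those of Psd. Of 15 tested negative regulators none passed, with 1 higher and 4 lower at an unadjusted p under 0.05 (8.56% and 8.46% of all kept genes). Nfkbia, the inhibitor of NF-kB that is itself induced by it, had 113 and 116 CPM on chow and 142 and 164 CPM on high-fat diet (edgeR, adjusted p = 0.109; DESeq2, adjusted p = 0.0366). Tnip1 and Ptpn6 had log2 fold changes of -0.47 and -0.33.

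Of 27 tested genes that respond to these receptors, Cxcl1 rose on high-fat diet, from 15.9 and 16.7 CPM to 28.9 and 36.8 CPM, a log2 fold change of 1.01 ± 0.14 (edgeR, adjusted p = 0.0266). The list had 16 genes above 0 and 11 below, with a median of 0.18. At an unadjusted p under 0.05 there were 8 higher and 1 lower, against 8.56% and 8.46% of all kept genes. Il6, the interleukin gene with the largest value of the list, had 5 and 5 counts on chow and 21 and 37 counts on high-fat diet, and missed the threshold (log2 fold change 2.41 ± 0.55; edgeR, adjusted p = 0.0898). The call of Cxcl1 ended when either control library was left out, and in limma-voom. Without high-fat replicate 1, 10 genes of this list were called higher, where calls over all kept genes came to 6.46% in all and 3.42% higher. Without high-fat replicate 2 there were 1 higher and 2 lower, where calls over all kept genes came to 3.55% in all, 1.86% higher and 1.69% lower; the latter 2 were Ccl4 and Acod1, named after their values were seen. Ccl4, a chemokine gene, had 21.1 and 20.8 CPM on chow and 8.34 and 20.4 CPM on high-fat diet, so that high-fat replicate 1 was the low library. Cd86, a costimulatory gene named in the same way, had 107 and 109 CPM on chow and 93.4 and 174 CPM on high-fat diet, so that replicate 2 was the high library. Mesothelial and fibroblast markers were higher in both high-fat libraries, as Cxcl1 and Il6 were, and lymphocyte markers in replicate 2. The part of these cells in the values of the response genes was not tested.

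**Figure D4:**
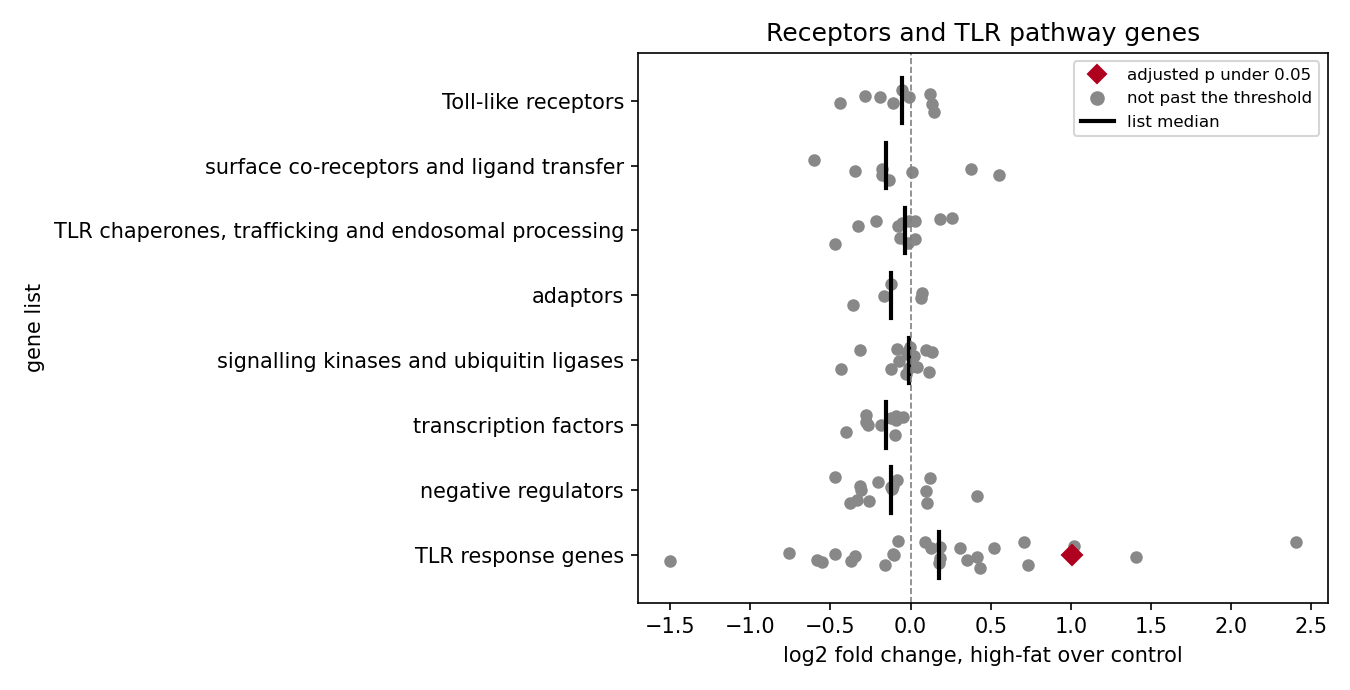
Log2 fold change of high-fat over control (horizontal axis) for each tested gene of the receptors and of 7 pathway lists (rows); diamonds mark genes with an adjusted p under 0.05 in edgeR, circles the others, and black bars the list medians. Cxcl1 at 1.01, among the response genes, is the marked gene, and the receptors run from -0.44 to 0.14.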

How the data were processed

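RNA from 4 libraries, 2 per diet, had its ribosomal RNA removed before paired-end sequencing, per the labels' protocols. The deposited values are raw counts per gene without normalization. TopHat2 2.0.10, Cufflinks 2.1.1, HTSeq and mm9 are named, per the submitters' processing notes; their settings and use of strand are not given in sources used here. One other deposited file gives exon positions on mm9, used for lengths and overlaps.

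Each table closes with lines of reads on no gene, which were excluded: of its sum, non-unique alignments took 37.5% to 48.5%, reads outside genes 13.5% to 15.0% and ambiguous reads 0.664% to 0.823%. Replicates differed far beyond sampling noise (chi-square per degree of freedom 33.8 and 34.9). The filter was filterByExpr from edgeR 4.0.16 (minimum count 10, minimum total 15), and the test its robust quasi-likelihood fit with TMM scaling, Benjamini-Hochberg adjustment over 12747 genes and a threshold of 0.05. Standard errors are the log2 fold change over the root of F, and 95% intervals use the t distribution. CPM and RPKM used the same scaling, RPKM the union of exons. Alternatives were DESeq2 1.42.0, limma-voom 3.58.1, other scaling, filters, lengths and gene sets, a replicate block and each library left out. The test scripts were tested on simulated data.

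Members, lists and tests were chosen with earlier results of these data known. Named are all receptors, and the genes past the threshold or else the 3 smallest p of each pathway list. The examples beside them, Cd14, Myd88, Sarm1, Il6, Ccl4, Acod1, Cd86, Slc15a4, Cnpy3 and Cnpy4, were chosen after their values were seen. So were, from the marker lists, Siglech, Clec9a, Flt3, Ccr7 and the genes named as past the threshold. Of the marker lists, Trbc2 was not matched.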

Additional observations from a re-analysis of the deposited data

How the results depend on the processing

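The absence of a called receptor held in edgeR with RLE size factors, a CPM filter, no robust fitting, RefSeq genes only and a replicate block, in limma-voom and without each library in turn; DESeq2 and edgeR with no filter on low counts each called 1, Tlr1 (log2 fold changes -0.44 and -0.45; adjusted p = 0.0449 and 0.0159). Tlr1 (-0.58 to -0.30), Tlr4 (0.071 to 0.21) and Tlr8 (-0.36 to -0.019) kept their direction in all 12 alternatives, the ends coming from left-out libraries; Tlr8 was -0.019 without control replicate 2. Leaving out a library turned the direction of small differences: Tlr2 became -0.14 and Tlr7 -0.064 without high-fat replicate 2, Tlr3 0.099 without control replicate 2, Tlr9 0.16 without control replicate 1, Tlr6 0.025 and Tlr13 0.068 without control replicate 2, and Tlr6 0.0042 and Tlr13 0.041 without high-fat replicate 2. Across left-out libraries the log2 fold changes ranged from -0.14 to 0.35 for Tlr2, from -0.30 to 0.099 for Tlr3, from -0.14 to 0.025 for Tlr6, from -0.064 to 0.31 for Tlr7, from -0.62 to 0.16 for Tlr9 and from -0.093 to 0.068 for Tlr13. The count over all genes, 78, was 366 with DESeq2, 28 with limma-voom, 522 with no filter and 46 with a CPM filter, and 3 to 823 with a library left out (16 and 3 without control replicate 1 or 2, 823 and 452 without high-fat replicate 1 or 2). The pathway count, 1, was 4 with DESeq2, 0 with limma-voom, 9 with no filter and 0 to 15 with a library left out (0 with either control library out, 15 and 4 without high-fat replicate 1 or 2). The cause of these shifts was not tested. RPKM levels moved by less than the spread between libraries with the longest transcript as length or with plain totals. Libraries share only a replicate number between diets (deviations of replicate 1 correlated at r = 0.0888 over genes): with the replicate block 0 receptors, 1 pathway gene and 113 genes in all were called, and Tlr1 had a log2 fold change of -0.44 (edgeR, adjusted p = 0.0761). Depth limits Tlr9 and Tlr5, and 2 libraries per diet limit the rest, with 95% half-widths of 1.17 to 1.30 fold for the receptors other than Tlr9 (1.91 fold).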
